A study of Mus musculus with 23 samples.

Results

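The collagen, laminin and integrin genes of mouse were described across embryoid bodies (EBs) and embryonic stem cells (ESCs) measured by RNA-seq. Members were the genes whose symbols follow the naming of collagen chains (Col with a type and a chain number), laminin chains (Lama, Lamb and Lamc) and integrin subunits (Itga and Itgb), which gave 83 of 29032 symbols in the deposited expression table. They comprised 44 collagen, 11 laminin and 28 integrin symbols, and no member symbol was repeated. One of the 28, Itgb3bp, meets the naming rule but encodes a centromere protein and not an integrin subunit, so it was left out of the integrin sums. The rule used no expression value.

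The series asks how Nodal signalling, through the chromatin reader TRIM33, acts on mesendodermal differentiation. RNA-seq was available as 10 libraries, 2 in each of 5 groups. EBs of 2 genotypes, wild type (WT) and Trim33-null, both from ESCs on a C57Bl/6J background, were collected at day 2.5 after withdrawal of leukaemia inhibitory factor (LIF) and were given either activin A, a ligand that uses the Nodal receptors, at 50 ng/ml for 2 h, or SB431542, an inhibitor of the type I receptor kinase. The labels give SB431542 as 10 micromolar in one place and 10 millimolar in another, and its duration as 1 h or 2 h. The fifth group was E14 ESCs kept with LIF on gelatin and given activin. All 10 libraries came from cells in 15% serum. The Trim33-null EBs came from null ESCs, so the genotype is shared by every cell type in them. Their sample titles carry the numbers 1 and 4, while the table columns give numerals I and II. These could not be matched, so libraries are called by column numeral. The titles of the ESC libraries contain the letters LKO although their characteristics and columns say wild type. EBs and ESCs also differ in line and culture, so state, line and culture cannot be told apart in that comparison.

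Values are FPKM, fragments per kilobase of transcript, scaled to the mapped fragments of the library, so levels can be compared between genes. The summed FPKM ran from 236708 to 251582 per library, and 10262 to 10846 genes reached 1 FPKM. Read counts, and so depth, are unknown. Trim33 was at 10.1 to 11.4 FPKM in the WT EBs, 2.23 to 2.83 in the Trim33-null EBs, and 6.60 and 6.25 in the ESCs. The table does not show which exons the remaining signal of the null EBs covers. The 8 pluripotency markers summed to 575 to 793 FPKM in the EBs and to 1079 and 1077 in the ESCs, so both kinds of library carried them. Whether a group's 2 libraries were grown as separate cultures is not stated in the labels. The spread that the p-values rest on may therefore be technical. In these bulk libraries fewer cells of a type and less RNA per cell cannot be told apart.

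Collagens, laminins and integrins form and bind the extracellular matrix. Collagen IV and laminin trimers, each of an alpha, a beta and a gamma chain, are the networks of basement membranes, the sheets on which the early epiblast and endoderm rest. Fibrillar collagens such as I, III and V and the beaded filaments of collagen VI belong to the looser matrix made mainly by mesenchymal cells and fibroblasts. Integrins are receptors of an alpha and a beta subunit: alpha 3, 6 and 7 bind laminins with beta 1, alpha 5 and alpha v bind fibronectin and related ligands, and alpha 1, 2, 10 and 11 bind collagens. In the early embryo, laminin and beta 1 integrin are needed to build the basement membrane under the epiblast.

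Few of the members were expressed at appreciable levels. Of the 83, 32 reached 1 FPKM in some library, 28 in at least 2 libraries and 15 reached 5 FPKM. The 28 comprised 13 collagens, 6 laminins and 9 integrins, and 51 members did not reach 1 FPKM in any library. Of the 4 that reached it in 1 library, Col15a1 and Col5a3 did so in the Trim33-null SB431542 library of column II at 1.02 and 1.17 FPKM. Col7a1, the anchoring fibril collagen, did so in the Trim33-null activin library of column II at 1.10 FPKM, and Itgb3bp in an ESC library at 1.11 FPKM. None of the 4 collagen-binding integrin alpha genes, none of the 5 leukocyte alpha genes, none of the 4 transmembrane collagen genes and none of the collagen IV genes other than Col4a1 and Col4a2 reached 1 FPKM. The 24 members tested among the EBs were those with at least 1 FPKM in at least 2 of the 8 EB libraries, and the 28 were tested against ESCs.

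**Figure D1:**
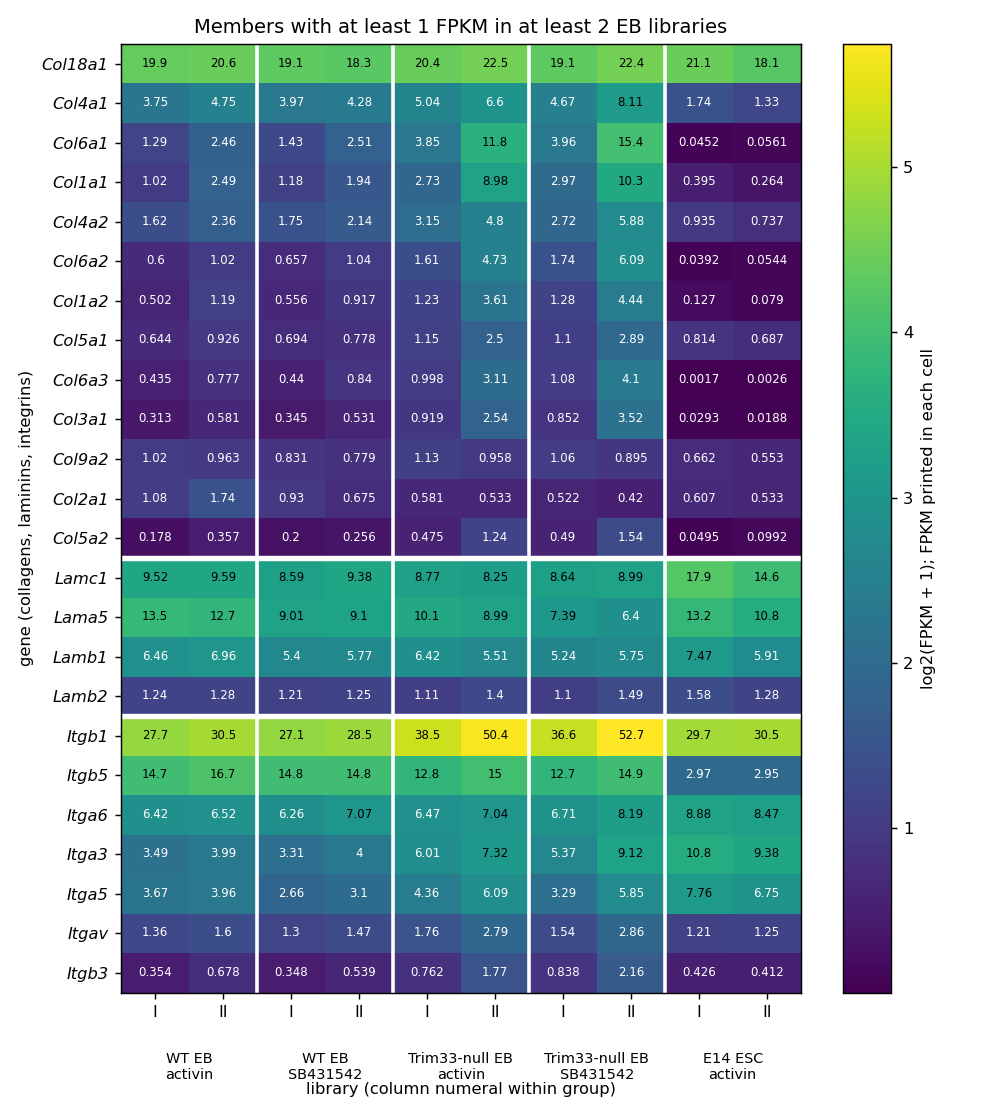
Colour gives log2(FPKM + 1) and the printed number the FPKM of each of the 24 members that reached 1 FPKM in at least 2 of the 8 EB libraries, with 1 column per library in 5 groups of 2. Itgb1 is the highest member in every library, and the Trim33-null column II libraries stand out in the collagen block.

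The highest member of all was Itgb1, the beta 1 subunit that pairs with most alpha subunits expressed here, at 27.7 and 30.5 FPKM in WT EBs under activin, 27.1 and 28.5 under SB431542, 38.5 and 50.4 in Trim33-null EBs under activin, 36.6 and 52.7 under SB431542, and 29.7 and 30.5 in ESCs. All 4 Trim33-null libraries were above all other libraries. Among collagens the highest was Col18a1, a basement membrane collagen whose end fragment is endostatin, at 18.1 to 22.5 FPKM over the 10 libraries. Its log2 difference in the 7 comparisons ran from -0.06 to 0.14, with no adjusted p under 0.305. Among laminins the highest were Lamc1, Lama5 and Lamb1, the gamma 1, alpha 5 and beta 1 chains. Lamb1 was at 5.24 to 7.47 FPKM in all 10 libraries, and its log2 difference ran from -0.15 to 0.23, with no adjusted p under 0.305.

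Summed over 44 genes, collagens were at 35.4 and 44.1 FPKM in WT EBs under activin, 35.2 and 38.6 under SB431542, 47.5 and 81.1 in Trim33-null EBs under activin, 45.7 and 93.8 under SB431542, and 28.9 and 25.0 in ESCs. Column II of the Trim33-null EBs was the highest at both treatments and ESCs the lowest. The 11 laminins summed to 24.8 to 32.1 FPKM over the 8 EB libraries and to 43.9 and 36.1 in ESCs. The 27 integrin subunits summed to 59.3 to 67.6 FPKM in WT EBs, 71.1 to 101.1 in Trim33-null EBs and 71.7 and 69.2 in ESCs. Collagen sums were thus lowest in ESCs and laminin sums highest there.

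Activin against SB431542 tests the acute effect of the Nodal/activin receptors. No member passed the test in either genotype (limma on log2(FPKM + 1), Benjamini-Hochberg adjusted p threshold 0.05). The share of all 11317 genes that was called was 0.221% for WT and 0.115% for Trim33-null EBs, so a list of 24 would be at 0 or near it at that rate. At an unadjusted p under 0.05 stood 3 members in WT (Lama5, Col2a1 and Lamb1, named after their values were seen) and 1 in Trim33-null EBs (Lama5). The share of all genes at that unadjusted threshold is not given, so these counts are not read as a result about the members. The 24 had a median log2 difference of 0.06 for WT and -0.05 for Trim33-null EBs, beside 0.00 and -0.02 over all genes.

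Lama5 (ENSMUSG00000015647.9), the alpha 5 chain of the laminins of embryonic basement membranes and of the pluripotent epiblast, had the lowest unadjusted p of the members for activin against SB431542 in both genotypes. It was at 13.5 and 12.7 FPKM in WT EBs under activin and at 9.01 and 9.10 under SB431542. In Trim33-null EBs it was at 10.1 and 8.99 FPKM under activin and 7.39 and 6.40 under SB431542. ESCs held 13.2 and 10.8 FPKM. In both genotypes both activin libraries were above both SB431542 libraries. The log2 difference was 0.49 ± 0.09 (SE) in WT (adjusted p = 0.233) and 0.42 ± 0.09 in Trim33-null EBs (adjusted p = 0.527). With the column numeral as a replicate block, Lama5 was the only member called, at the same differences, and its adjusted p was 0.0101 for WT and 0.0250 for Trim33-null EBs. In that fit 1.09% and 0.733% of all genes were called. The activin difference in Trim33-null minus that in WT EBs was -0.07 for Lama5 (adjusted p = 1.0), and no member and 0% of all genes were called for this difference with limma. At an unadjusted p under 0.05 it held 0 of the 24 members and 24 of all 11317 genes. Where 1 Trim33-null library was left out this difference for Lama5 turned to 0.01 (without activin II) or 0.02 (without SB431542 I).

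The promoters of members on which the results turn are shown as the bases before the annotated start of each gene, from the RefSeq annotation of build GRCm38.p6, read 5′ to 3′ on the strand of the gene. This differs from the mm9 build named for the expression values, so the coordinates are those of RefSeq. The motifs searched on both strands were CAGAC, the SMAD box, then CCAAT, a common promoter element, then the TATA element as TATAAA, and the FOXH1 site as AATCCACA. No motif contains another. Capitals mark matches on either strand, so GTCTG is a SMAD box match on the opposite one. Lama5 was chosen for its activin and genotype differences, Itgb5 as the member with the largest excess in WT EBs over ESCs, and Col1a2, Col3a1 and Col6a1 for collagens I, III and VI, which were high together in Trim33-null column II. The windows lie at chr2:180225905-180226109 for Lama5 (minus strand, 205 bases), chr16:33829415-33829664 for Itgb5 (plus strand), chr6:4505368-4505617 for Col1a2 (plus strand), chr1:45311288-45311537 for Col3a1 (plus strand) and chr10:76726045-76726294 for Col6a1 (minus strand), with 250 bases for the last 4. The Lama5 window stops at a more upstream annotated start, 45 bases before the start listed in the promoter table.
Lama5: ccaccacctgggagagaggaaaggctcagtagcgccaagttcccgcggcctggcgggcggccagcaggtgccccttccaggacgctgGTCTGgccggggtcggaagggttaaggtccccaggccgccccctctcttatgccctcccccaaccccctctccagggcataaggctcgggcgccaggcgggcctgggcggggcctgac
Itgb5: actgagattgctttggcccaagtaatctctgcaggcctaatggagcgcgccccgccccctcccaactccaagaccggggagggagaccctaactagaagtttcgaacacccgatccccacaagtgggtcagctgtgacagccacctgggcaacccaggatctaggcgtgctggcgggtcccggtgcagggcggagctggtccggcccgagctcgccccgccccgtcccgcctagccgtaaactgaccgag
Col1a2: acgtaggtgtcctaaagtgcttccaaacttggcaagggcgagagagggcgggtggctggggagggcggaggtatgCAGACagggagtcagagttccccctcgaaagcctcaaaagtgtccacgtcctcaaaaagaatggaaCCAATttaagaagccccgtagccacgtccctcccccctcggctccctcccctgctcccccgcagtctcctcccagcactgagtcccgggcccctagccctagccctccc
Col3a1: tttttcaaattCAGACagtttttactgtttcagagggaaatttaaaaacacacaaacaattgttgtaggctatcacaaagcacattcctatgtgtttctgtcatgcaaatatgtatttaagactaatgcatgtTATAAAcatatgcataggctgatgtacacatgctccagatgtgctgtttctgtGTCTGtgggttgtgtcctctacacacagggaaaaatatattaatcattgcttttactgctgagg
Col6a1: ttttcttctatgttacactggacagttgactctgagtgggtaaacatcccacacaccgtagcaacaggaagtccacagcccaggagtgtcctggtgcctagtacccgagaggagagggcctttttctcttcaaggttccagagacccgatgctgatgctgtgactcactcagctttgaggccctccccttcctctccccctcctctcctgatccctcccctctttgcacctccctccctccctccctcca

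The Lama5 window held 1 SMAD box match, 163 bases upstream of the listed start, from which all positions are counted. Col1a2 held 1 SMAD box match 175 bases upstream and 1 CCAAT match 109 bases upstream. Col3a1 held SMAD box matches 239 and 64 bases upstream and 1 TATAAA match 117 bases upstream. Itgb5 and Col6a1 held none of the 4. No window held the FOXH1 letters. Of 32851 promoter windows of 250 bases, 42.2% held CAGAC on either strand, 33.8% CCAAT, 12.4% TATAAA and 0.718% the FOXH1 letters, and for windows of 205 bases the CAGAC share was 36.5%. The G and C content was 71.7% for Lama5, 65.2% for Itgb5, 62% for Col1a2, 35.2% for Col3a1 and 56% for Col6a1, where the median of all windows was 52.4% at 250 bases. These matches describe letters in these windows and are not shown to be bound. Of the 83 members, 60 had a promoter entry.

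**Figure D2:**
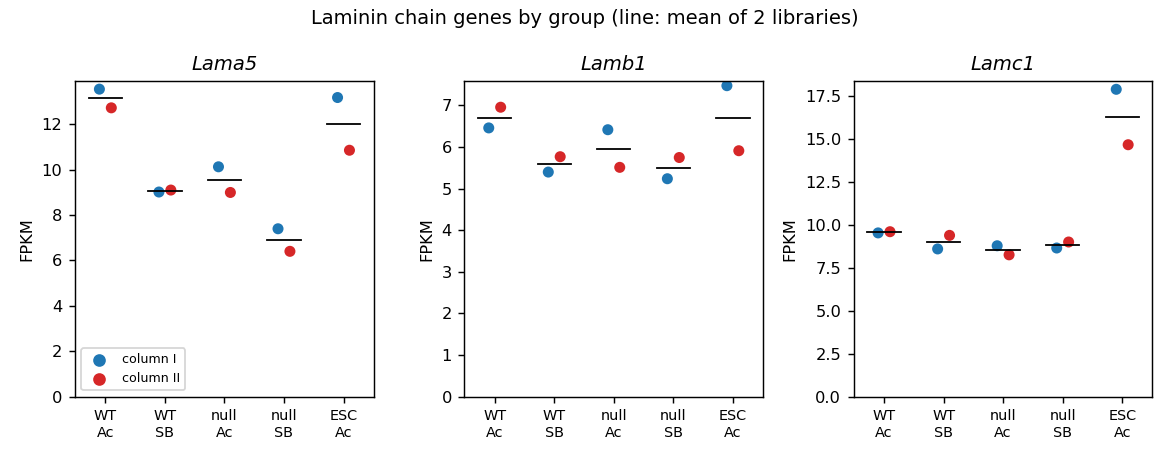
FPKM of the laminin chain genes Lama5, Lamb1 and Lamc1 in each library (points, column I blue and column II red) with the mean of the 2 libraries of a group as a line; Ac is activin, SB is SB431542 and null is Trim33-null. Lama5 lies higher under activin than under SB431542 in both genotypes, and Lamc1 is highest in the ESCs.

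Trim33-null against WT EBs compares the genotypes. Any other difference between the ESCs they came from cannot be told apart from the loss of Trim33. Lama5 was the only member called under activin, lower by 0.42 ± 0.09 (SE) on the log2 scale (adjusted p = 0.0422, limma), and both Trim33-null libraries were below both WT libraries. It held with the replicate block (adjusted p = 0.0368). Of all genes tested 8.09% were called, and 4.68% were called as lower, so 1 member of 24 is near the background. The call was lost without a filter on low values, under median-of-ratios scaling, with only the 4 libraries compared, and without any 1 of the WT libraries or of the Trim33-null activin libraries. Over all 15 alternatives the difference stayed between -0.50 and -0.34. Under SB431542 no member was called with limma, beside 8.08% of all genes, and 6 members had an unadjusted p under 0.05. The share of all genes at that unadjusted threshold is not given, so the 6 are not read as a result about the members. Lama5 was lower there by 0.35 ± 0.09 (SE) (log2 difference -0.35, adjusted p = 0.0625).

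None of the other laminin chains tested was called between genotypes. Lamc1 was at 9.52 and 9.59 FPKM in WT and 8.77 and 8.25 in Trim33-null EBs under activin. Lamb1 was at 6.46 and 6.96 FPKM in WT and 6.42 and 5.51 in Trim33-null EBs there. For both genes the Trim33-null libraries were thus below the WT libraries under activin, and levels overlapped under SB431542. Lamb2, the beta 2 chain, was at 1.10 to 1.49 FPKM in all 8 EB libraries. Lama1, the alpha 1 chain of the first embryonic laminins, reached 1 FPKM in an EB only in the Trim33-null activin library of column I, at 1.26 FPKM. Its other EB libraries held 0.408 to 0.998 FPKM, and it was not tested between genotypes.

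In the 8 tested genes of collagens I, III, V and VI, each Trim33-null library was above both WT libraries of its treatment. Column II was above column I throughout. The share of all genes separated in this way is not given, so this is not read as a result about the members. Col1a2, Col3a1, Col5a1, Col5a2 and Col6a3 needed the Trim33-null libraries to be tested. None of the 8 passed the test with both columns in the fit. Col6a1 (ENSMUSG00000001119.7), a chain of collagen VI, was at 1.29 and 2.46 FPKM in WT EBs under activin and 1.43 and 2.51 under SB431542. In Trim33-null EBs it was at 3.85 FPKM in column I and 11.8 in column II under activin, and at 3.96 and 15.4 under SB431542. ESCs held 0.05 and 0.06 FPKM. Column I was thus 2.06 times and column II 6.30 times the WT mean under activin, and 2.01 and 7.82 times under SB431542. With both columns in the fit the log2 difference between genotypes was 1.49 ± 0.67 (SE) under activin (adjusted p = 0.202, from 0.0134 to 0.589 over the alternatives) and 1.63 ± 0.67 under SB431542 (adjusted p = 0.174, from 0.00925 to 0.531). Neither passed the adjusted threshold, although every Trim33-null library was above every WT library.

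Col1a1, the alpha 1 chain of collagen I, was also highest in Trim33-null column II and lowest in ESCs. It was at 1.02 and 2.49 FPKM in WT EBs under activin, 1.18 and 1.94 under SB431542, 2.73 and 8.98 in Trim33-null EBs under activin and 2.97 and 10.3 under SB431542. ESCs held 0.40 and 0.26 FPKM. The log2 difference between genotypes was 1.20 ± 0.64 (SE) under activin (adjusted p = 0.269, from 0.0207 to 0.728 over the alternatives) and 1.41 ± 0.64 under SB431542 (adjusted p = 0.210, from 0.0148 to 0.620). Neither passed the test.

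The other collagens of these types showed the same split between columns. Col3a1, the collagen III chain, was at 0.31 to 0.58 FPKM in the 4 WT libraries, at 0.92 and 0.85 in Trim33-null column I and at 2.54 and 3.52 in column II. Col6a2 was at 0.60 to 1.04 FPKM in WT, 1.61 and 1.74 in column I and 4.73 and 6.09 in column II. Col6a3 was at 0.44 to 0.84 FPKM in WT, 1.00 and 1.08 in column I and 3.11 and 4.10 in column II. Col1a2 was at 0.50 to 1.19 FPKM in WT, 1.23 and 1.28 in column I and 3.61 and 4.44 in column II. Col5a1 and Col5a2, chains of collagen V, were at no more than 0.926 and 0.357 FPKM in WT and reached 2.89 and 1.54 FPKM in column II. Col3a1, Col5a1, Col5a2 and Col6a3 reached 1 FPKM in no WT library and passed the filter on low values only through the Trim33-null libraries. They therefore had to be higher there to be tested. Col1a2 reached it in 1 WT library and so also needed the Trim33-null libraries. Col2a1, the cartilage collagen also made in early embryos, went the other way at 1.08 and 1.74 FPKM in WT and 0.58 and 0.53 in Trim33-null EBs under activin. It reached 1 FPKM only in the 2 WT activin libraries, and so passed the filter only through the group where it is high. Its log2 difference was -0.62 ± 0.14 (SE), with an adjusted p of 0.0524 that ran from 0.0502 to 0.159 over the alternatives.

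**Figure D3:**
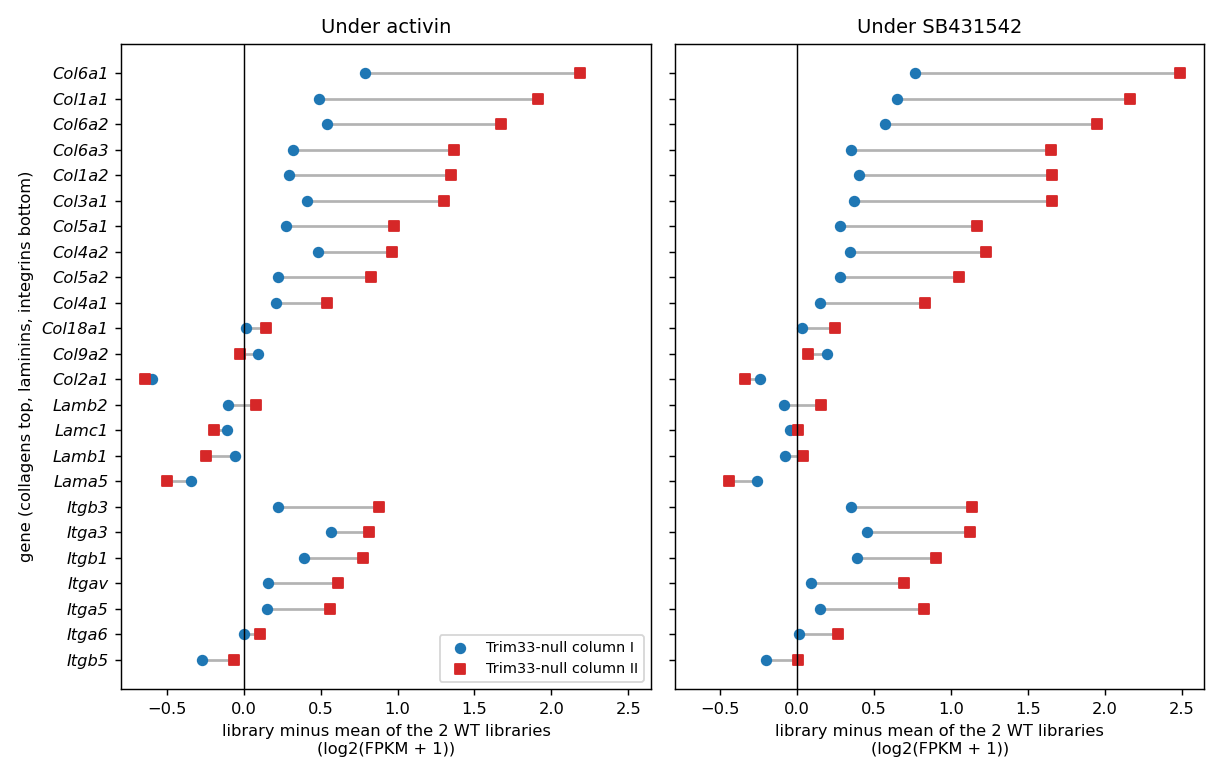
Each Trim33-null library minus the mean of the 2 WT libraries of its treatment, in log2(FPKM + 1), for the 24 members tested among EBs (circles, column I; squares, column II). Column II lies to the right of column I for 19 of 24 members under activin and 21 of 24 under SB431542. It was above column I for 5454 and 5248 of all 11317 genes. Lama5 lies to the left of 0 in all 4 libraries.

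Collagen IV, the network of basement membranes, showed a smaller split. Col4a1 was at 3.75 to 4.75 FPKM in WT EBs, 5.04 and 4.67 in Trim33-null column I, 6.60 and 8.11 in column II, and 1.74 and 1.33 in ESCs. Col4a2, which is transcribed head to head with Col4a1, was at 1.62 to 2.36 FPKM in WT, 3.15 and 2.72 in column I, 4.80 and 5.88 in column II, and 0.93 and 0.74 in ESCs. The log2 differences between genotypes under activin were 0.37 ± 0.23 (SE) for Col4a1 (adjusted p = 0.338, 0.0336 to 0.735 over the alternatives) and 0.72 ± 0.31 for Col4a2 (adjusted p = 0.186, 0.0185 to 0.554). Under SB431542 they were 0.49 (adjusted p = 0.231, 0.0129 to 0.701) and 0.78 (adjusted p = 0.163, 0.0109 to 0.491). The ratio of Col4a1 to Col4a2 ran from 2.00 to 2.32 in the WT EBs and from 1.38 to 1.71 in the Trim33-null EBs.

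Several integrin genes also had higher levels in the Trim33-null libraries, though none passed the test with both columns in the fit. Itga3, the alpha 3 subunit of a laminin receptor, was at 3.31 to 4.00 FPKM in the 4 WT libraries, 6.01 and 5.37 in Trim33-null column I and 7.32 and 9.12 in column II. No Trim33-null library was as low as any WT library. The log2 difference was 0.69 ± 0.22 (SE) under activin (adjusted p = 0.103, 0.0135 to 0.382 over the alternatives) and 0.79 ± 0.22 under SB431542 (adjusted p = 0.0777, 0.00719 to 0.341). For Itgb1 it was 0.58 ± 0.19 (adjusted p = 0.112, 0.00887 to 0.399) and 0.64 ± 0.19 (adjusted p = 0.0935, 0.00579 to 0.350). Itga5, the alpha subunit of the fibronectin receptor, was at 2.66 to 3.96 FPKM in WT, 4.36 and 3.29 in column I and 6.09 and 5.85 in column II. Itgav, the alpha v subunit, was at 1.30 to 1.60 FPKM in WT, 1.76 and 1.54 in column I and 2.79 and 2.86 in column II. Itgb3, which pairs with alpha v, was at 0.35 to 0.68 FPKM in WT, 0.76 and 0.84 in column I and 1.77 and 2.16 in column II, and passed the filter only through the Trim33-null libraries. Itgb5, the other alpha v partner expressed here, did not follow them, with 14.7 to 16.7 FPKM in WT and 12.7 to 15.0 in Trim33-null EBs. Itga6, a second laminin-binding subunit, was at 6.26 to 7.07 FPKM in WT and 6.47 to 8.19 in Trim33-null EBs, and its levels overlapped.

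Read as a family, 12 of the 13 collagens tested had a positive difference between genotypes at each treatment, with a median of 0.72 under activin and 0.78 under SB431542 on the log2 scale. The median over all genes was -0.03 and -0.02. For the 7 integrins it was 0.38 and 0.48, and for the 4 laminins -0.15 and -0.02. None of the collagens and integrins passed the test at either treatment. These counts and medians are a description, since some genes entered only through the group where they are high. In Trim33-null EBs these were 4 of the collagens and Itgb3, and in WT EBs Col2a1. Col1a2 and Col9a2 reached 1 FPKM in 1 WT library each, so they too needed the Trim33-null libraries to be tested. With no filter, 34 and 36 of all 44 collagens had a positive difference, with medians of 0.06 and 0.08 beside 0.00 over all genes at both treatments, and none of them was called as higher.

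These values depended on the column. Under activin column II was above column I for 19 of 24 members, with a median difference of 0.39 on the log2 scale, against -0.01 over all genes tested. Under SB431542 it was above for 21 of 24, with a median of 0.67 against -0.02. Of all 11317 genes tested, column II was above for 5454 under activin and 5248 under SB431542. The 3 collagen VI genes had medians of 1.13 and 1.37. In the WT EBs column II was also above column I, for 22 and 21 of 24 members, with medians of 0.19 and 0.11. Over all genes it was above there for 6352 and 6687, with medians of 0.017 and 0.019. No p-value was computed between columns, since each genotype and treatment has 1 library of each.

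Without both Trim33-null libraries of column I, 16 of 23 members were called under activin, 15 of them higher, and 17 under SB431542, 16 of them higher. The background then was 30.0% and 30.2% of all genes, and the lone library of each Trim33-null group was assumed to vary like the other groups. The 15 were Col1a1, Col1a2, Col3a1, Col4a1, Col4a2, Col5a1, Col5a2, Col6a1, Col6a2, Col6a3, Itga3, Itga5, Itgav, Itgb1 and Itgb3, and Col18a1 joined them under SB431542. Lama5 was the one lower at both. Of the genes called higher, Col3a1, Col5a1, Col5a2, Col6a3 and Itgb3 reached 1 FPKM in no WT library, so they entered this fit only by being high in the group tested. Col1a2 reached it in 1 WT library and so also needed the Trim33-null libraries. Without both libraries of column II, 3 of 20 members were called under activin, Itga3 at 0.57 (adjusted p = 0.0467), Itgb1 at 0.39 (adjusted p = 0.0489) and Lama5 at -0.34 (adjusted p = 0.0416), and none under SB431542, where 5 members had an unadjusted p under 0.05. The background in that fit was 11.1% and 10.9%. For the unadjusted threshold that share is not given, so the 5 members are not read as a result. The log2 difference of Col6a1 was 2.19 and 2.49 without column I and 0.79 and 0.76 without column II, the first of each pair under activin.

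Markers of fibroblasts were high in the same libraries as these collagens. The 8 fibroblast markers, all of them measured, summed to 11.4 to 15.5 FPKM in WT EBs, 14.6 and 14.7 in Trim33-null column I, 29.5 and 35.6 in column II, and 5.20 and 5.15 in ESCs. The 5 that were tested were higher in column II than in column I in each of the 4 pairs of libraries. Dcn, which encodes the fibroblast proteoglycan decorin, was at 0.81 to 1.34 FPKM in WT, 1.20 and 1.27 in Trim33-null column I and 3.32 and 4.44 in column II. Pdgfrb, a receptor of mesenchymal cells, was at 0.28 to 0.50 FPKM in WT, 0.57 and 0.58 in column I and 1.73 and 2.06 in column II. Lum, the lumican gene, was at 0.19 to 0.38 FPKM in WT, 0.53 and 0.58 in column I and 1.68 and 2.66 in column II. Pdgfrb and Lum reached 1 FPKM only in Trim33-null column II, so they had to be high there to be among those tested. The part of such cells in the collagen values was not tested.

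The other marker lists did not follow that order. The 15 markers of extraembryonic endoderm, tissue that makes collagen IV and laminin, summed to 5.35 to 9.61 FPKM in WT EBs, 11.0 and 9.04 in Trim33-null column I, 9.85 and 10.9 in column II, and 2.73 and 2.25 in ESCs. The 8 markers of endothelium and blood summed to 3.30 to 3.54 FPKM in WT, 5.07 and 5.03 in column I, 3.20 and 3.55 in column II, and 6.92 and 6.30 in ESCs. The 6 markers of nascent mesoderm were lower in column II than in column I in both genotypes, at 11.6 and 5.98 FPKM in Trim33-null EBs under activin and 6.25 and 2.73 under SB431542. In WT EBs they were at 30.5 and 19.3 FPKM under activin and 14.5 and 7.09 under SB431542. Their part in the results was not tested.

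**Figure D4:**
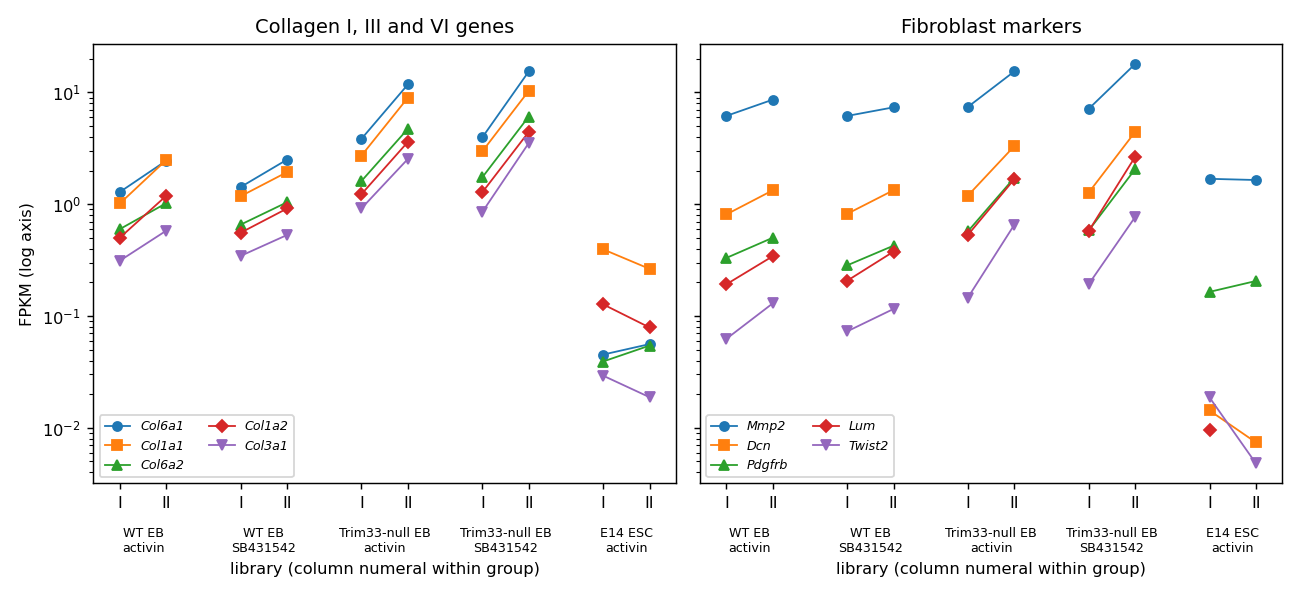
FPKM on a log axis of 5 genes of collagens I, III and VI (left) and 5 fibroblast markers (right) in each library, with lines joining columns I and II of a group; Lum is listed at 0 in ESC II and has no point there. Both sets are highest in Trim33-null column II and lowest in ESCs.

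The FPKM ratios between these collagen genes varied less over the EB libraries than the genes did, though some differed by genotype. Over the 8 EB libraries the FPKM ratio of Col1a2 to Col1a1 ran from 0.402 to 0.494, that of Col3a1 to Col1a1 from 0.233 to 0.341, that of Col6a1 to Col1a1 from 0.986 to 1.49, and that of Col6a2 to Col6a1 from 0.395 to 0.466. In the 2 ESC libraries, where these genes were low, the ratios lay elsewhere, with Col6a1 to Col1a1 at 0.114 and 0.212, Col3a1 to Col1a1 at 0.0740 and 0.0710 and Col6a2 to Col6a1 at 0.868 and 0.970. In the EBs those genes themselves ranged over more than their ratios did, as Col1a1 ran from 1.02 to 10.3 FPKM. By genotype, Col1a2 to Col1a1 was 0.472 to 0.494 in WT and 0.402 to 0.452 in Trim33-null EBs. Col6a1 to Col1a1 was 0.986 to 1.29 in WT and 1.31 to 1.49 in Trim33-null EBs. For Col6a3 to Col6a1 the values were 0.309 to 0.338 and 0.259 to 0.272. The ratios of Col3a1 to Col1a1 and of Col6a2 to Col6a1 overlapped between genotypes. The ratio of Dcn to Col1a1 was 0.535 to 0.798 in WT and 0.369 to 0.439 in Trim33-null EBs, so the marker and the collagen did not keep one proportion across genotypes. The ratio of Lama5 to Lamc1 was 1.42 and 1.33 in WT EBs under activin, 1.05 and 0.97 under SB431542, 1.15 and 1.09 in Trim33-null EBs under activin and 0.855 and 0.712 under SB431542.

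Genes that process or bind these proteins were counted beside the members. Between genotypes 8.09% of all genes were called under activin and 8.08% under SB431542, and no list is read as set apart from that share. Among 15 matrix partners of basement membranes tested, none was called between genotypes at either treatment. Among 21 tested genes of collagen modification and secretion, none was called under activin, and Serpinh1, the collagen chaperone HSP47, was higher in Trim33-null EBs under SB431542 by 0.59 ± 0.12 (SE, adjusted p = 0.0363, 0.0523 with the replicate block). Serpinh1 was at 25.5 and 25.9 FPKM in WT and 40.1 and 38.0 in Trim33-null EBs there, so column II was not above column I. Among 20 genes of the integrin adhesion machinery, Parva, which encodes an adaptor that links integrins to actin, was higher at both treatments by 0.40 ± 0.07 (adjusted p = 0.0299) and 0.48 ± 0.07 (adjusted p = 0.0169). Vcl, vinculin, was lower under activin by 0.46 ± 0.09 (log2 difference -0.46, adjusted p = 0.0378, 0.0661 with the block). Tns3, a tensin, was higher under SB431542 by 0.39 ± 0.08 (adjusted p = 0.0446). Among 13 other matrix receptors, Cd9, a tetraspanin that associates with integrins, was higher at both treatments by 0.62 and 0.76 (adjusted p = 0.0478 and 0.0286), and Gpc3, a glypican, was lower under SB431542 (log2 difference -0.54, adjusted p = 0.0267, 0.0758 with the block). With the block, the lists in the order given here held 0, 1, 2 and 2 calls under activin and 1, 1, 3 and 2 under SB431542, all of them higher. The share of all genes called with the block is not given for these comparisons, so those counts are not read as a result about the lists.

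EBs against ESCs, both under activin, set 2.5 days of differentiation beside the starting state, with line and culture differing as well. In WT EBs, 12 of 28 members were called (4 higher, 8 lower), beside 56.9% of all 11661 genes tested (30.5% higher and 26.4% lower). In Trim33-null EBs, 19 of 28 were called (12 higher, 7 lower), beside 59.8% of all genes (30.2% higher and 29.6% lower). Of all calls, 53.6% and 50.5% were higher, which became 39.5% and 39.6% under median-of-ratios scaling. These comparisons share the ESC libraries. Leaving out an ESC library moved the counts to 6 or 7 for WT and to 6 or 7 for Trim33-null EBs, and leaving out Trim33-null activin II moved the latter to 10. Of the called members, 8 of 12 and 8 of 19 passed under every alternative in which they were tested.

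The 2 integrin beta genes that differed most between EBs and ESCs did so in opposite directions. Itgb5 (ENSMUSG00000022817.10), the beta 5 subunit of a vitronectin receptor, was at 14.7 and 16.7 FPKM in WT EBs under activin, 12.8 and 15.0 in Trim33-null EBs and 2.97 and 2.95 in ESCs. It was higher than in ESCs by 2.07 ± 0.10 (SE) in WT and 1.91 ± 0.10 in Trim33-null EBs on the log2 scale, and no EB library approached the ESC level. Itgb7 (ENSMUSG00000001281.5), the beta 7 subunit best known from lymphocyte homing, was at 5.83 and 5.45 FPKM in ESCs and at 0.46 to 0.67 in all 8 EB libraries. It was lower in EBs, with log2 differences of -2.13 ± 0.06 and -2.01 ± 0.06. Its known partner subunits Itga4 and Itgae did not reach 1 FPKM in any library. Itgb7 passed the filter only through the ESCs, which had to be high for it to be tested. The ratio of Itgb5 to Itgb1 was 0.520 to 0.546 in the WT EBs, 0.282 to 0.348 in the Trim33-null EBs and 0.0998 and 0.0969 in the ESCs.

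Of the integrin alpha genes of the laminin-binding class, Itga3 and Itga6 were lower in WT EBs than in ESCs. Itga7 did not reach 1 FPKM in any library and was not tested. Itga3 was at 3.49 and 3.99 FPKM in WT EBs, 6.01 and 7.32 in Trim33-null EBs and 10.8 and 9.38 in ESCs. It fell by 1.22 ± 0.21 (SE) in WT EBs (log2 difference -1.22, adjusted p = 0.00167). In Trim33-null EBs it was lower by 0.53 (log2 difference -0.53, adjusted p = 0.0547, 0.00311 to 0.220 over the alternatives), which did not pass the test. Itga6 was at 6.42 and 6.52 FPKM in WT EBs and 8.88 and 8.47 in ESCs, with log2 differences of -0.37 in WT (adjusted p = 0.0120) and -0.32 in Trim33-null EBs (adjusted p = 0.0216). The call was lost without ESC I for both genotypes, without WT activin I or II for WT, and without Trim33-null activin I or ESC II for the other. Itga5 was at 3.67 and 3.96 FPKM in WT EBs and 7.76 and 6.75 in ESCs, with a log2 difference of -0.78 in WT (adjusted p = 0.0174) that was lost without any 1 of those 4 libraries. In Trim33-null EBs Itga5 differed by -0.42 (adjusted p = 0.131, 0.00199 to 0.468 over the alternatives). Itga9, which binds tenascin, was at 0.33 to 0.47 FPKM in EBs and 1.22 and 1.15 in ESCs, and passed the filter only through the ESCs. Its log2 differences were -0.64 and -0.63.

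Itgb1 itself was not called in WT EBs, where its 2 libraries (27.7 and 30.5 FPKM) overlapped those of ESCs. In Trim33-null EBs it was higher by 0.53 ± 0.18 (SE, adjusted p = 0.0318), and that call was lost under 7 alternatives, among them median-of-ratios scaling and leaving out Trim33-null activin II or either ESC library.

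Laminin genes that moved were lower in EBs. Lamc1, the gamma 1 chain found in most laminins, was at 17.9 and 14.6 FPKM in ESCs and at 8.25 to 9.59 in all 8 EB libraries, and fell by 0.70 ± 0.09 (SE) in WT (log2 difference -0.70, adjusted p = 0.000530) and 0.85 ± 0.09 in Trim33-null EBs (log2 difference -0.85, adjusted p = 0.000242). Lama1 was at 0.43 and 0.73 FPKM in WT EBs, 1.26 and 0.55 in Trim33-null EBs and 1.88 and 1.52 in ESCs, with log2 differences of -0.78 (adjusted p = 0.00765) and -0.53 (adjusted p = 0.0366). The first was lost without WT activin I or ESC I, the second under 9 alternatives. Lama1 reached 1 FPKM in both ESC libraries and in 1 EB library, so it passed the filter only with the ESCs, where it is high. Lama5 was lower in Trim33-null EBs (log2 difference -0.30 ± 0.11, adjusted p = 0.0404, lost under 9 alternatives) and was not called in WT EBs. Lamb1 and Lamb2 passed in neither.

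**Figure D5:**
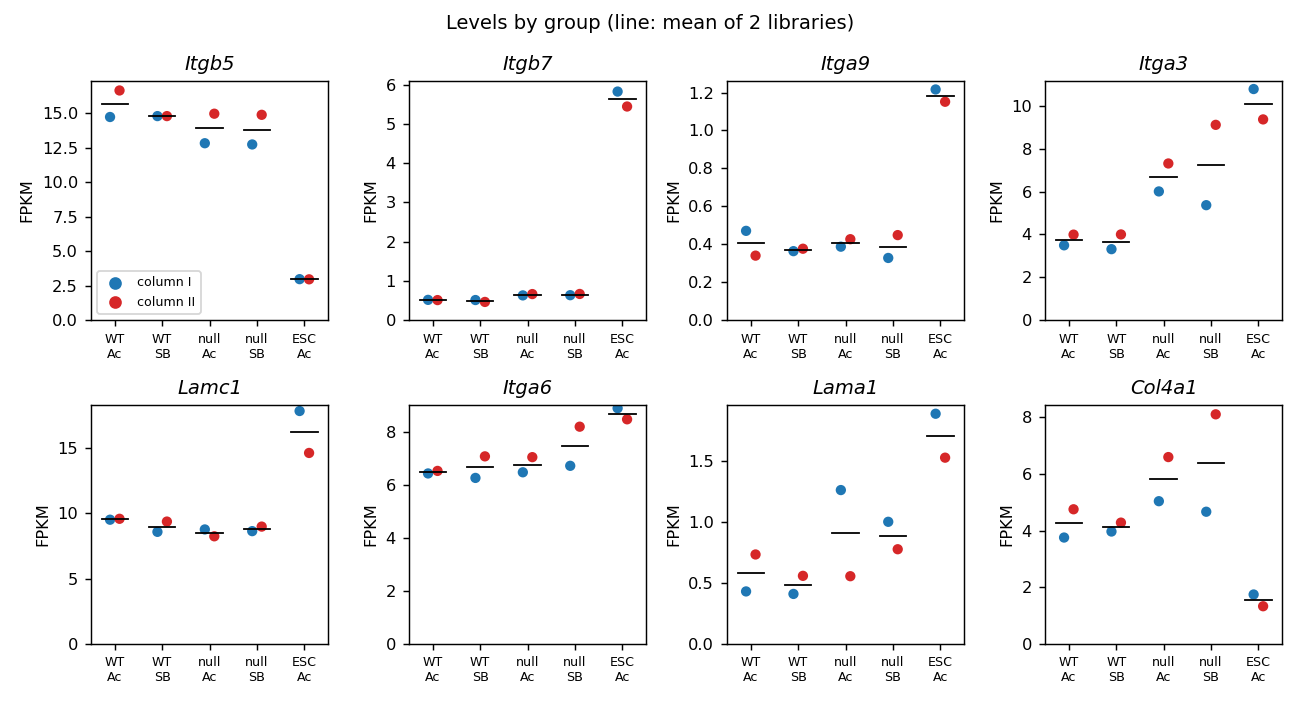
FPKM of 8 members in each library (points, column I blue and column II red) with the mean of the 2 libraries of a group as a line; Ac is activin, SB is SB431542 and null is Trim33-null. Itgb5 and Col4a1 are lowest in the ESCs, and the other 6 are highest there.

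Collagens that moved were higher in EBs. Col4a1 rose over ESCs by 1.05 ± 0.22 (SE) in WT EBs (adjusted p = 0.00500) and 1.42 ± 0.22 in Trim33-null EBs (adjusted p = 0.00122), and passed under every alternative for both. Col4a2 was higher by 1.42 ± 0.29 in Trim33-null EBs (adjusted p = 0.00391), and in WT EBs by 0.70 (adjusted p = 0.0699, 0.0430 with the replicate block). Col9a2, a chain of the fibril-associated collagen IX, was at 1.02 and 0.96 FPKM in WT EBs, 1.13 and 0.96 in Trim33-null EBs and 0.66 and 0.55 in ESCs, and rose by 0.31 and 0.34, the first of which was lost without ESC II. Apart from Col4a1, each called collagen was under 1 FPKM in both ESC libraries and passed the filter only through EB libraries. Col2a1, which passed only through WT activin, was higher in WT EBs by 0.60 ± 0.13 (adjusted p = 0.00541). It was not called in Trim33-null EBs, at 0.58 and 0.53 FPKM beside 0.61 and 0.53 in ESCs.

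Of the collagens of types I, III, V and VI, 7 were called in Trim33-null EBs and none in WT EBs. Of all genes, 30.2% and 30.5% were called higher. Col3a1, Col5a2 and Col6a3 reached 1 FPKM in no WT or ESC library, and Col1a2 in 1 WT library. They were thus tested only because the Trim33-null libraries were high, so 7 against none is not read as a genotype difference. Col6a1 rose by 2.91 ± 0.61 (SE, adjusted p = 0.00467) over ESCs, and by 2.21 and 3.61 without Trim33-null activin II and I. In WT EBs its log2 difference was 1.42 (adjusted p = 0.0791, 0.0274 with the replicate block, 0.000234 to 0.287 over the alternatives). Col1a1 rose by 2.199 ± 0.58 in Trim33-null EBs (adjusted p = 0.0133), and differed by 1.00 in WT EBs (adjusted p = 0.178, 0.00519 to 0.537 over the alternatives). Col6a2, Col1a2, Col6a3, Col3a1 and Col5a2 rose by 1.89, 1.54, 1.52, 1.35 and 0.76 in Trim33-null EBs. The calls of Col1a1, Col1a2, Col6a2 and Col6a3 were lost without Trim33-null activin II or either ESC library, and that of Col3a1 without either ESC library. That of Col5a2 was lost under 7 of the 13 alternatives in which it was tested, among them leaving out any 1 WT or ESC library. With the replicate block Itgav, Itgb3 and Col5a1 were called as well in Trim33-null EBs (adjusted p = 0.0206, 0.0332 and 0.0426). Whether the change from ESCs differs between genotypes is the genotype comparison under activin, in which none of these genes was called with all libraries. Of the 5 fibroblast markers tested, 3 were called higher than in ESCs in Trim33-null EBs and 1 in WT EBs, beside 30.2% and 30.5% of all genes, and none of the 5 was called between genotypes under activin. Their part was not tested.

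The partners of these genes divided in both directions, and 56.9% (WT) and 59.8% (Trim33-null) of all genes were called in these comparisons. Of 15 matrix partners tested, 3 rose and 4 fell in WT EBs against ESCs, and 6 rose and 4 fell in Trim33-null EBs. Nid1 and Nid2, the nidogens that link laminin to collagen IV, fell in both, Nid2 from 31.6 and 26.7 FPKM in ESCs to 12.3 and 9.42 in WT EBs and 15.6 and 12.4 in Trim33-null EBs. Ntn1, netrin 1, fell with log2 differences of -1.97 and -1.95, and Fbln1, fibulin 1, rose by 1.08 and 1.12. Of 22 genes of collagen modification and secretion, 7 rose and 5 fell in WT EBs, and 13 rose and 4 fell in Trim33-null EBs. Serpinh1 rose by 1.67 ± 0.11 (SE) and 2.17 ± 0.11, from 8.66 and 8.31 FPKM in ESCs to 26.3 and 32.4 in WT EBs and 44.9 and 38.9 in Trim33-null EBs. With the replicate block Ppib in WT EBs (adjusted p = 0.0653) and Plod3 in Trim33-null EBs (adjusted p = 0.0552), named after their values were seen, were no longer called. The counts called in the 4 lists then were 10, 11, 15 and 6 in WT EBs and 10, 17, 14 and 7 in Trim33-null EBs, in the order in which the lists are given here. The share of all genes called with the block is not given there, so these counts are not read as a result about the lists. Pcolce, an enhancer of procollagen processing, fell with log2 differences of -2.25 and -1.48. Of 20 adhesion genes, 6 rose and 9 fell in WT EBs, and 6 rose and 8 fell in Trim33-null EBs, with Zyx, zyxin, higher by 1.58 and 1.59 and Tns3 lower (log2 differences -2.23 and -1.97). Of 13 other matrix receptors, 3 rose and 2 fell in WT EBs, and 5 rose and 1 fell in Trim33-null EBs. The syndecans Sdc2 and Sdc4 rose by 1.56 and 1.29 in WT EBs, and Bcam, a receptor for laminins with the alpha 5 chain, fell in both (log2 differences -1.37 and -1.11).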

How the data were processed

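RNA-seq values of 10 mouse libraries were used. The 8 ATAC-seq and 5 ChIP-seq samples were not analysed here. The authors deposited FPKM, 1 column for each library. Per the submitters' processing notes, which give no roles, the tools were STAR 2.4.0, Cufflinks 2.2.1, Bowtie2 2.2.2 and CASAVA 1.8, with build mm9. Neither annotation nor strandedness was stated, so reads of overlapping genes cannot be told apart. The table held 29145 entries and 29032 symbols. Where a symbol was repeated, the entry with the highest mean was kept.

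Values were put on a log2(FPKM + 1) scale. Genes entered a fit if 2 or more of its libraries held 1 FPKM or more. Differences were tested by limma-trend (limma 3.58.1, R 4.3.3), with Benjamini-Hochberg adjustment over all genes tested and a threshold of 0.05. Fold changes on this scale understate the change of low genes. The 8 EB libraries were fitted together (4 residual degrees of freedom) and all 10 for ESCs (5). For 2 against 2 libraries the smallest two-sided p of an exact permutation test is 0.333. The fit was run on simulated data with independent noise in each library. These lack the column differences described below, so the run does not show how the fit behaves with them.

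Column numerals are shared by groups. The differences of I minus II correlated between treatments across 11317 genes at 0.459 (WT) and 0.909 (Trim33-null), so the numerals pair the libraries. A fit with this replicate block was run (a fixed term for activin comparisons, a random effect with correlation 0.737 or 0.720 for the others), and its values are given where they change a call.

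Any member may be named with its level. Statistics are given for called members, at most 10 a direction, and for the 3 highest of each family, and at most 5 genes a direction of each partner list. Other members were named after their values were seen. The members, lists and tests were chosen with earlier results of these data known. Alternatives were a pseudocount of 0.1, no filter, median-of-ratios scaling, only the libraries compared, leaving out libraries, and the block. Promoters are from RefSeq (GRCm38.p6). Values of 1 called member are not reported here.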

Additional observations from a re-analysis of the deposited data

How the results depend on the processing

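The counts of members called moved as follows. Under activin, Trim33-null against WT EBs gave 1 call, which became 0 with no filter, median-of-ratios scaling or only the libraries compared, 16 without both Trim33-null libraries of column I and 3 without both of column II, and ranged from 0 to 2 as each library was left out. Under SB431542 the count of 0 became 1 with no filter and 17 without both of column I, and ranged from 0 to 3. With the replicate block, 1 member was called for activin against SB431542 in each genotype, where the count was 0. WT EBs against ESCs gave 12, which became 19 with a pseudocount of 0.1, 27 with no filter (83 members tested), 19 without both of column I, and ranged from 6 to 14. Trim33-null EBs against ESCs gave 19, ranging from 6 to 24. In the fit that gave 12 and 19, 56.9% and 59.8% of all genes were called. That share is not given for the alternatives of the comparisons with ESCs. Between genotypes it is given only for the fits without a Trim33-null column. These moves are therefore not read as a result about the members. The cause was not tested. The count for the difference in activin response stayed at 0 under the alternatives run, with the replicate block as well. In that difference Lama5 was at -0.07 and ranged from -0.16 to 0.02 as each library was left out, turning positive without Trim33-null activin II (0.01) or SB431542 I (0.0203).

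The block gave 14 and 22 calls for WT and Trim33-null EBs against ESCs, where 12 and 19 were called without it. The share of all genes called with the block is not given there, so this rise is not read as a result about the members. The block changed no call of a member other than those given beside the results. Its changes to the partner lists are given with their counts. Median-of-ratios scaling, over all 10 libraries, moved the median of all genes by -0.116 in WT and -0.0955 in Trim33-null EBs against ESCs, and the share of calls that were higher from 53.6% to 39.5% and from 50.5% to 39.6%. Members called there were 4 higher and 9 lower, and 11 higher and 9 lower. No member symbol was repeated, so summing repeated entries would change nothing. Itga9 and Itgb7 could not be tested without an ESC library. With 2 libraries a group and no read counts, the spread between libraries limits what could be called.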
